A study of Mus musculus with 24 samples.

Results

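The comparison described here set whole lungs of *Scnn1b*-Tg mice at postnatal day (PND) 3 (3 arrays) against those of wild-type (WT) littermates of the same age (3 arrays), 6 of the 24 arrays of the lung table, chosen by their titles. Each array measured RNA from the left lobes of a pool of untreated, specific-pathogen-free male mice of the C57Bl/6N Tac background. For each of the 6 arrays the labels name 2 animals, whereas the study's methods describe larger pools, so the pool and not the mouse is the replicate. Arrays of both genotypes at PND 0, 10 and 42 (3 each) served for the spread in the fit and for the comparison of ages.

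*Scnn1b* encodes the beta subunit of the epithelial sodium channel ENaC, which also needs the alpha subunit *Scnn1a* and the gamma subunit *Scnn1g* and carries sodium, and water with it, out of the liquid that lines the airway. In *Scnn1b*-Tg mice the promoter of *Scgb1a1*, the gene of club cell secretory protein, drives extra *Scnn1b* in airway secretory cells, not in every cell of the lobe that was sampled. Too much sodium absorption dries the airway surface, and mucus then clears poorly. The first postnatal days are also a time when the lung grows by cell division, begins to form alveoli and is seeded by macrophages. The question for PND 3 was which genes differ in the transgenic lung in the first days of mucus obstruction.

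Values are log2 levels after robust multi-array averaging (RMA), so a difference of 1 is a 2-fold difference, and levels are not compared between genes. The limma fit gave each of the 8 groups of age and genotype a mean, with 16 residual degrees of freedom, and p-values were adjusted by the Benjamini-Hochberg method over all 21789 probe sets that name exactly 1 gene (19938 genes). A probe set is said to have changed where the adjusted p did not exceed 0.05, and by 2-fold or more where its fold change also reached 2. Of several probe sets of a gene, the brightest over the 24 arrays gives the value.

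WT replicate 2 stood apart from the other WT arrays, and each result below is therefore given also without it, which leaves 2 WT arrays. Across the tested probe sets the root mean square log2 difference was 0.251 to 0.317 between *Scnn1b*-Tg arrays and 0.257 to 0.377 between WT arrays. WT replicates 1 and 3 were 0.257 apart, while WT replicate 2 was 0.301 and 0.377 from them and 0.255 from *Scnn1b*-Tg replicate 2, its nearest array of all 24. The other 5 arrays each had their nearest array in their own group. In WT replicate 2, 192 probe sets lay at least 2-fold above and 104 at least 2-fold below the mean of the other 2 WT arrays. WT replicate 3 departed too, with 96 above and 97 below the mean of the other 2 WT arrays. It was 0.313 to 0.388 from the *Scnn1b*-Tg arrays, and from each of them it was the farthest WT array. Results without WT replicate 2 rest on WT replicates 1 and 3. For *Scnn1b*-Tg replicate 1, against the other 2 *Scnn1b*-Tg arrays, the counts were 69 and 20. The *Scnn1b* level of WT replicate 2 was 7.52, near the 6.79 and 6.92 of the other WT arrays and below the lowest *Scnn1b*-Tg array at 10.04. By the animal numbers in the labels, the mice of WT replicate 2 directly precede those of *Scnn1b*-Tg replicate 3, and those of *Scnn1b*-Tg replicate 1 directly precede those of replicate 2. Whether such pools shared a litter is not given in the sources used here and was not tested. The labels of *Scnn1b*-Tg replicates 1 and 2 name animals 2662 to 2665. Those of *Scnn1b*-Tg replicate 3 and of all WT replicates name animals between 2781 and 2884. For *Scnn1b*-Tg replicates 1 and 2, an effect of this separate run of animals cannot be told apart from genotype.

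**Figure D1:**
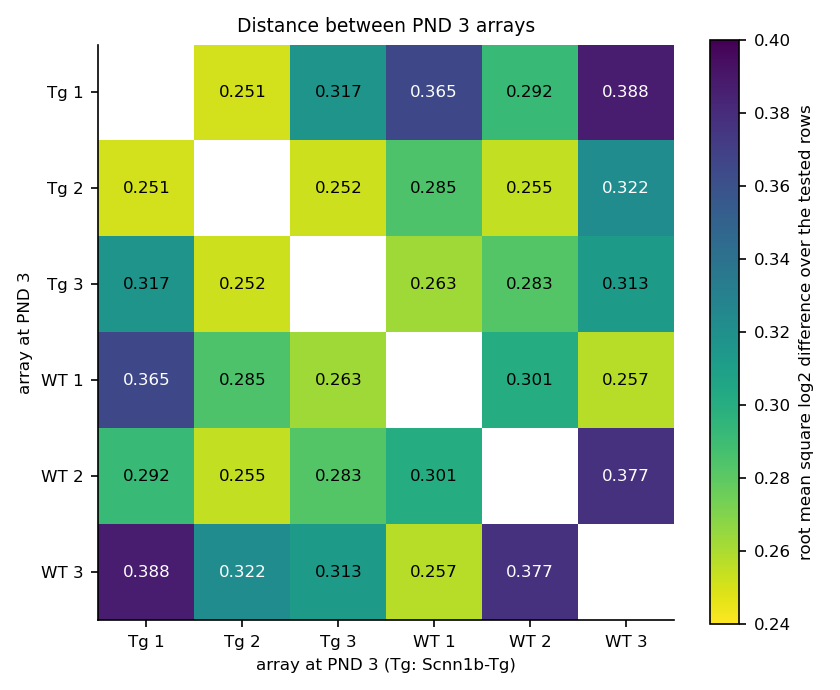
Root mean square log2 difference between each pair of PND 3 arrays over the tested probe sets (colour and printed value, darker is farther; Tg is *Scnn1b*-Tg). WT replicate 2 was 0.301 and 0.377 from the other WT arrays and 0.255 to 0.292 from the *Scnn1b*-Tg arrays.

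The defining markers fitted male lung in all 6 arrays. The Y-linked *Eif2s3y*, *Kdm5d* and *Uty* lay between 4.99 and 7.92, and *Xist* between 3.88 and 4.18. Markers of the alveolar type II cell, the surfactant-making cell (*Sftpc*, *Sftpa1*, *Lamp3*, *Abca3*), averaged 10.48 to 10.95 in *Scnn1b*-Tg and 10.52 to 11.03 in WT arrays. Club cell markers (*Scgb1a1*, *Scgb3a1*, *Scgb3a2*, *Cyp2f2*, *Aldh1a1*) averaged 10.53 to 10.89 in *Scnn1b*-Tg and 10.72 to 10.79 in WT arrays. Markers of thymus (*Rag1*, *Dntt*, *Ptcra*) and brown fat (*Ucp1*), and *Cd3e* and *Ncr1* of T and NK cells, all lay below 4.2, near the floor of these arrays. Other genes of T and NK cells were brighter, such as *Gzma*, a granule protease, which averaged 6.29 in *Scnn1b*-Tg and 6.33 in WT arrays, and *Cd3g*, a chain of the T cell receptor complex, which averaged 5.17 in *Scnn1b*-Tg and 5.74 in WT arrays (difference -0.57, adjusted p = 0.664). Skeletal muscle markers (*Acta1*, *Ckm*) averaged 5.99 to 6.17 in *Scnn1b*-Tg arrays, and in WT arrays 6.03 to 7.55, the highest in replicate 3. *Krt13* and *Krt4*, keratins of the squamous epithelium that lines the mouth and gullet, also read 7.51 and 7.24 in WT replicate 3 and under 4.2 in the other 5 arrays. The part of such tissue in the results was not tested.

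With all arrays, 10 probe sets of 10 genes changed (0.0459% of those tested), 5 higher (0.0229%) and 5 lower (0.0229%) in *Scnn1b*-Tg lungs. Of them 4 (0.0184%) reached 2-fold: *Scnn1b* and *Ttr* were higher (2 probe sets, 0.00918%), and *Slitrk6* and *Treml4* were lower (2, 0.00918%). At an unadjusted p of at most 0.05, 753 probe sets were higher and 848 lower. Without WT replicate 2, 176 probe sets changed (0.808%), 80 higher (0.367%) and 96 lower (0.441%), and 77 of them by 2-fold or more (0.353%). All 10 probe sets that changed with all arrays also changed without WT replicate 2. Leaving out another array had the opposite effect in most cases: 1 probe set, that of *Scnn1b*, changed without *Scnn1b*-Tg replicate 1 or without *Scnn1b*-Tg replicate 2, 2 without WT replicate 1, 3 without WT replicate 3 and 29 without *Scnn1b*-Tg replicate 3. Apart from *Scnn1b*, each change described here with all arrays was therefore lost when either of the first 2 *Scnn1b*-Tg arrays was left out.

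The transgene had the largest difference of all tested probe sets. *Scnn1b* read 10.42, 10.65 and 10.04 in *Scnn1b*-Tg replicates 1, 2 and 3, against 6.79, 7.52 and 6.92 in WT replicates 1, 2 and 3. The groups were far apart, 9.76-fold (log2 difference 3.29, SE 0.26, adjusted p = 4.63e-07), and without WT replicate 2 the difference was 3.51. The probe set does not separate the transgene's transcript from the mouse's own. *Ttr*, which encodes the thyroxine carrier transthyretin and of which the study says that its signal comes from the transgenic construct, read 7.23, 7.03 and 6.79 in *Scnn1b*-Tg, against 5.51, 4.54 and 5.31 in WT lungs. All *Scnn1b*-Tg arrays were above all WT arrays (difference 1.89, SE 0.31, adjusted p = 0.0235), and WT replicate 2 was the lowest of the 6.

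**Figure D2:**
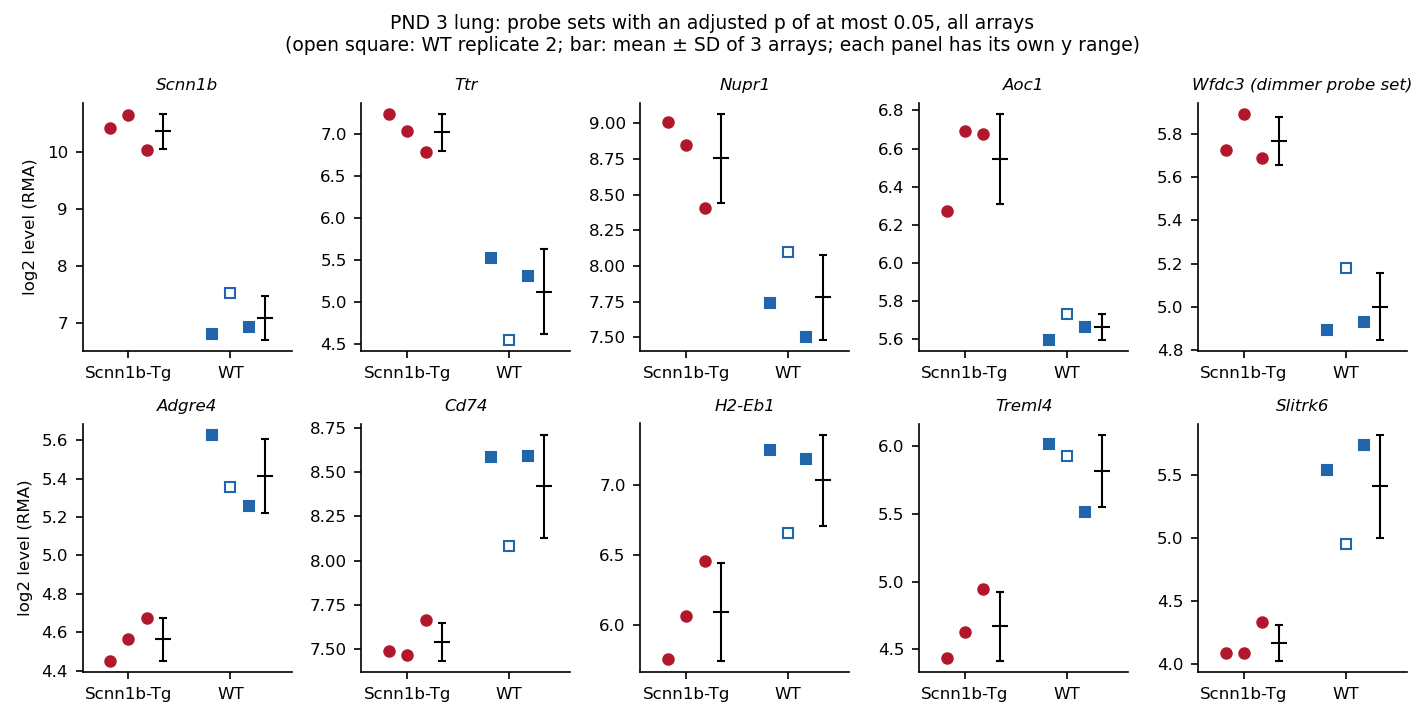
The log2 level in each PND 3 array of the 10 genes that changed with all arrays (circles *Scnn1b*-Tg, squares WT, open square WT replicate 2, bars mean ± SD of 3 arrays). In every panel the groups do not overlap, and *Scnn1b* shows the widest gap, 3.29.

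Among the genes that changed in the mouse's own genome, *Nupr1*, *Aoc1* and *Wfdc3* were higher. *Nupr1*, which encodes a small nuclear protein induced by cell stress, read 9.01, 8.85 and 8.40 in *Scnn1b*-Tg, against 7.74, 8.10 and 7.50 in WT lungs. The lowest *Scnn1b*-Tg array exceeded the highest WT array, replicate 2 (difference 0.97, SE 0.18, adjusted p = 0.049). *Aoc1*, which encodes the histamine-degrading diamine oxidase, read 6.27, 6.69 and 6.67 in *Scnn1b*-Tg, against 5.6, 5.73 and 5.66 in WT lungs. Here WT replicate 2 lay close to the other WT arrays (difference 0.88, SE 0.16, adjusted p = 0.0425). *Wfdc3*, of the whey acidic protein family of protease inhibitors, changed in 1 of its 2 probe sets, which was 0.77 higher (SE 0.14, adjusted p = 0.049). Its other probe set, the brighter over all 24 arrays, differed by -0.12 (adjusted p = 0.964), so the direction for the gene is uncertain.

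Of the genes that were lower, *Treml4* and *Adgre4* are myeloid receptors. *Treml4*, a receptor of macrophages and dendritic cells, read 4.44, 4.63 and 4.95 in *Scnn1b*-Tg, against 6.01, 5.93 and 5.51 in WT lungs. The groups were apart by 2.22-fold (difference -1.15, SE 0.20, adjusted p = 0.0323), and WT replicate 2 lay between the other WT arrays. *Adgre4*, an adhesion receptor of macrophages, read 4.45, 4.57 and 4.67 in *Scnn1b*-Tg, against 5.63, 5.36 and 5.26 in WT lungs (difference -0.85, SE 0.14, adjusted p = 0.0235). *Slitrk6*, a membrane protein with leucine-rich repeats that is best known in neurons and the inner ear, read 4.09, 4.09 and 4.34 in *Scnn1b*-Tg, against 5.54, 4.95 and 5.74 in WT lungs. It was 2.36-fold lower (difference -1.24, SE 0.22, adjusted p = 0.0425). All 3 genes were dim, and in *Scnn1b*-Tg lungs they averaged under 5. Macrophage markers (*Cd68*, *Marco*, *Siglecf*, *Adgre1*) averaged 6.33 to 6.62 in *Scnn1b*-Tg and 6.28 to 6.68 in WT arrays and overlapped. The part of these cells in the lower values was not tested. In RNA of a whole lobe, fewer cells of a type and less RNA per cell cannot be told apart.

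MHC class II molecules are those with which dendritic cells, B cells and macrophages present peptides to T cells, and of their genes *Cd74* and *H2-Eb1* were lower in *Scnn1b*-Tg lungs. *Cd74*, the invariant chain that escorts class II molecules, read 7.49, 7.47 and 7.66 in *Scnn1b*-Tg, against 8.58, 8.09 and 8.59 in WT lungs. The groups did not overlap, and WT replicate 2 was the WT array nearest to the *Scnn1b*-Tg arrays (difference -0.88, SE 0.14, adjusted p = 0.0235, and -1.05 with an adjusted p of 0.00189 without that array). *H2-Eb1*, a beta chain, read 5.76, 6.06 and 6.46 in *Scnn1b*-Tg, against 7.26, 6.66 and 7.19 in WT lungs (difference -0.94, SE 0.17, adjusted p = 0.0425). *H2-Aa*, an alpha chain, read 7.30, 7.32 and 7.99 in *Scnn1b*-Tg, against 8.72, 8.13 and 8.67 in WT lungs. It missed the threshold with all arrays (difference -0.97, adjusted p = 0.0641) and passed it without WT replicate 2 (difference -1.16, adjusted p = 0.00994).

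*H2-Ab1*, the beta chain that pairs with *H2-Aa*, missed it both times (difference -0.86 and adjusted p = 0.208, and -0.93 and adjusted p = 0.0534 without WT replicate 2). *H2-DMa*, part of the peptide-loading helper, averaged 4.86 ± 0.09 in *Scnn1b*-Tg and 5.36 ± 0.18 in WT lungs (SD, n = 3 each), a difference of -0.50 that did not pass (adjusted p = 0.454). *Ciita*, the coactivator that class II genes depend on, was dim and nearly equal, at 4.58 ± 0.09 in *Scnn1b*-Tg and 4.58 ± 0.11 in WT lungs (SD, n = 3 each). Of the 19 measured genes of dendritic cells and MHC class II, 2 were lower and 0 higher with all arrays, and 3 and 0 without WT replicate 2. Of all tested probe sets, 0.0229% were lower and 0.0229% higher with all arrays. Without WT replicate 2, 0.456% of all genes were lower and 0.396% higher. The groups were apart with *Scnn1b*-Tg lower in 7 of the 19, against 5.93% of all genes, and with *Scnn1b*-Tg higher in 1, against 5.46%. The median of the list was close to that of all genes, -0.06 against 0.00, and *Flt3*, the growth factor receptor of dendritic cells, differed by 0.07 (adjusted p = 0.987).

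The 2 B cell markers had lower mean levels in the same arrays. *Cd79a*, a chain of the B cell receptor, and *Ms4a1*, which encodes CD20, together averaged 5.40 to 5.63 in *Scnn1b*-Tg and 6.00 to 6.31 in WT arrays, without overlap. Neither changed alone (*Cd79a* -0.69, adjusted p = 0.62, and *Ms4a1* -0.61, adjusted p = 0.845). The list of B and plasma cell genes had 17 measured members, of which 0 changed and 4 were apart with *Scnn1b*-Tg lower, against 5.93% of all genes. Its median difference was -0.10, with 14 members lower and 3 higher, against a median of 0.00 for all genes. The part of B cells in the lower class II values was not tested. *Mcpt8*, a protease gene of basophils, averaged 3.88 ± 0.34 in *Scnn1b*-Tg and 4.67 ± 0.26 in WT lungs (SD, n = 3 each), a difference of -0.79 that passed only without WT replicate 2 (adjusted p = 0.0641 with all arrays and 0.0319 without it).

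Class II promoters share a Y box, an inverted CCAAT element bound by the factor NF-Y. *H2-Aa* and *H2-Eb1* had the largest differences among the class II chain genes named here (-0.97, which missed the threshold, and -0.94, which passed), and 60 bases around the box of each are shown from the RefSeq promoter windows of mouse build GRCm38.p6 (250 bases before to 50 after a gene's start), on the strand of the gene, with the 7 letters TGATTGG in capitals. *H2-Aa* lies at chr17:34287844-34287903 on the minus strand, with the box starting 50 bases before the gene's start. *H2-Eb1* lies at chr17:34305776-34305835 on the plus strand, with the box starting 61 bases before it.
H2-Aa: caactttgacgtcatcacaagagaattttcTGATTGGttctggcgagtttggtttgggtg
H2-Eb1: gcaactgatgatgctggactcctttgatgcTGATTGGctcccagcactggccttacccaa
On either strand, as TGATTGG or CCAATCA, these letters occur in 9.0% of the 27025 genes with a window, and in 3 of the 4 class II genes of the list that have one (*H2-Aa*, *H2-Eb1* and *H2-Oa*). The count took the *H2* genes of the list and left out *Cd74*. The other *H2* gene with a window does not hold these exact letters in it. *H2-Oa* carries the letters too, and its levels were at the floor of the array, 3.99 ± 0.04 in *Scnn1b*-Tg and 4.12 ± 0.02 in WT lungs (SD, n = 3 each).

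Of the other subunits of the sodium channel, the alpha subunit was higher in *Scnn1b*-Tg lungs once WT replicate 2 was left out. *Scnn1a* read 9.47, 9.25 and 8.54 in *Scnn1b*-Tg, against 7.78, 8.65 and 7.54 in WT lungs. WT replicate 2 lay just above *Scnn1b*-Tg replicate 3, the only overlap. With all arrays the difference of 1.10 (SE 0.22) did not pass (adjusted p = 0.0964), and without WT replicate 2 it was 1.43 (SE 0.20, adjusted p = 0.00196). *Scnn1g* read 9.43, 9.23 and 8.97 in *Scnn1b*-Tg, against 8.65, 9.09 and 8.55 in WT lungs, and passed neither with all arrays (difference 0.45, adjusted p = 0.532) nor without WT replicate 2 (0.61, adjusted p = 0.0709).

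The list of channel subunits, channel-cleaving proteases, their inhibitors and other regulators had 19 measured members besides *Scnn1b* itself. With all arrays 0 changed, and without WT replicate 2, 3 were higher and 0 lower (for all genes 0.396% were higher and 0.456% lower there). The other members that changed were *Atp1b1*, the beta subunit of the sodium pump (0.96, adjusted p = 0.0345), and *Spint1*, an inhibitor of channel-activating proteases (0.62, adjusted p = 0.0394). Over the list the median difference was 0.34, and 0.61 without WT replicate 2. *Nedd4l*, the ubiquitin ligase that takes the channel off the membrane, differed by 0.59 (adjusted p = 0.486), and the aldosterone-induced kinase *Sgk1* by -0.09 (adjusted p = 0.993). *Spink5*, a protease inhibitor of epithelia, read 8.07, 8.02 and 7.30 in *Scnn1b*-Tg, against 6.03, 6.97 and 5.75 in WT lungs. All *Scnn1b*-Tg arrays were above all WT arrays, and the difference of 1.55 (adjusted p = 0.0865) passed without WT replicate 2 (1.91, adjusted p = 0.00852). *Liph*, which encodes a lipase that makes lysophosphatidic acid, had a difference of 1.10 (adjusted p = 0.0853), and of 1.23 (adjusted p = 0.0217) without that array.

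The genes of the secretory cells that carry the transgene did not move one way. *Scgb1a1*, whose promoter drives it, read 12.91, 13.27 and 12.63 in *Scnn1b*-Tg, against 13.66, 13.56 and 13.61 in WT lungs. All *Scnn1b*-Tg arrays were lower, but the difference of -0.67 (SE 0.27) did not pass (adjusted p = 0.602), and leaving out WT replicate 2 left it at -0.70 (adjusted p = 0.392). *Scgb3a2*, another secretoglobin of these cells, differed by -0.34 (adjusted p = 0.73) and *Cyp2f2*, their cytochrome P450, by -0.05 (adjusted p = 0.999). Of 23 club cell genes 1 changed with all arrays, *Nupr1*, against 0.0459% of all tested probe sets. The list has a median of 0.16, and 4 members were apart with *Scnn1b*-Tg higher, against 5.46% of all genes, and 3 with it lower, against 5.93%.

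Of 24 genes of detoxifying enzymes, many of them active in club cells, 0 changed with all arrays, and the median difference was 0.21. Without WT replicate 2, 1 was higher (0.396% of all genes) and 0 lower (0.456%). The enzymes named below are not all members of this list. The groups were apart with *Scnn1b*-Tg higher in 8 of them, against 5.46% of all genes, and with it lower in 0, against 5.93%. *Cyp2s1*, a cytochrome P450, read 8.57, 8.89 and 8.72 in *Scnn1b*-Tg, against 7.90, 8.28 and 7.93 in WT lungs. The groups were apart, with a difference of 0.69 that passed only without WT replicate 2 (adjusted p = 0.189 with all arrays, and 0.81 and 0.0268 without it). *Cyp2b10* read 7.42, 7.32 and 7.16 in *Scnn1b*-Tg, against 6.05, 6.40 and 6.15 in WT lungs, a 2.15-fold difference whose adjusted p was 0.247 with all arrays and 0.0617 without WT replicate 2. *Cyp2d22* averaged 6.53 ± 0.44 in *Scnn1b*-Tg and 5.61 ± 0.09 in WT lungs (SD, n = 3 each). Its difference of 0.93 had an adjusted p of 0.057, and of 0.0242 without WT replicate 2.

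Mucus and cilia gave no gene that changed with all arrays. Of 43 ciliated cell genes, 11 were apart with *Scnn1b*-Tg higher (5.46% of all genes) and 0 with it lower (5.93% of all genes), and 0 changed with or without WT replicate 2. The list's median was 0.12. *Foxj1*, the master regulator of motile cilia, differed by -0.02 (adjusted p = 0.999). The 5 goblet cell markers (*Muc5ac*, *Muc5b*, *Clca1*, *Spdef*, *Agr2*) averaged 5.08 to 5.17 in *Scnn1b*-Tg and 4.64 to 4.81 in WT arrays, without overlap. *Muc5b*, the main mucin of healthy mouse airways, read 6.55, 6.16 and 6.02 in *Scnn1b*-Tg, against 5.29, 5.41 and 5.21 in WT lungs. The groups were apart, but the difference of 0.94 did not pass (adjusted p = 0.59), also not without WT replicate 2 (adjusted p = 0.354). *Muc5ac*, the mucin that goblet cells add in disease, stayed at 4.35 to 4.69 in *Scnn1b*-Tg and 4.30 to 4.37 in WT arrays. Of 24 goblet cell and mucus genes, 0 changed with or without WT replicate 2, and their median was 0.14. Of these, 4 were apart with *Scnn1b*-Tg higher (5.46% of all genes) and 1 with it lower (5.93% of all genes), *Tff2*, a trefoil peptide of mucus (-0.73, adjusted p = 0.637).

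**Figure D3:**
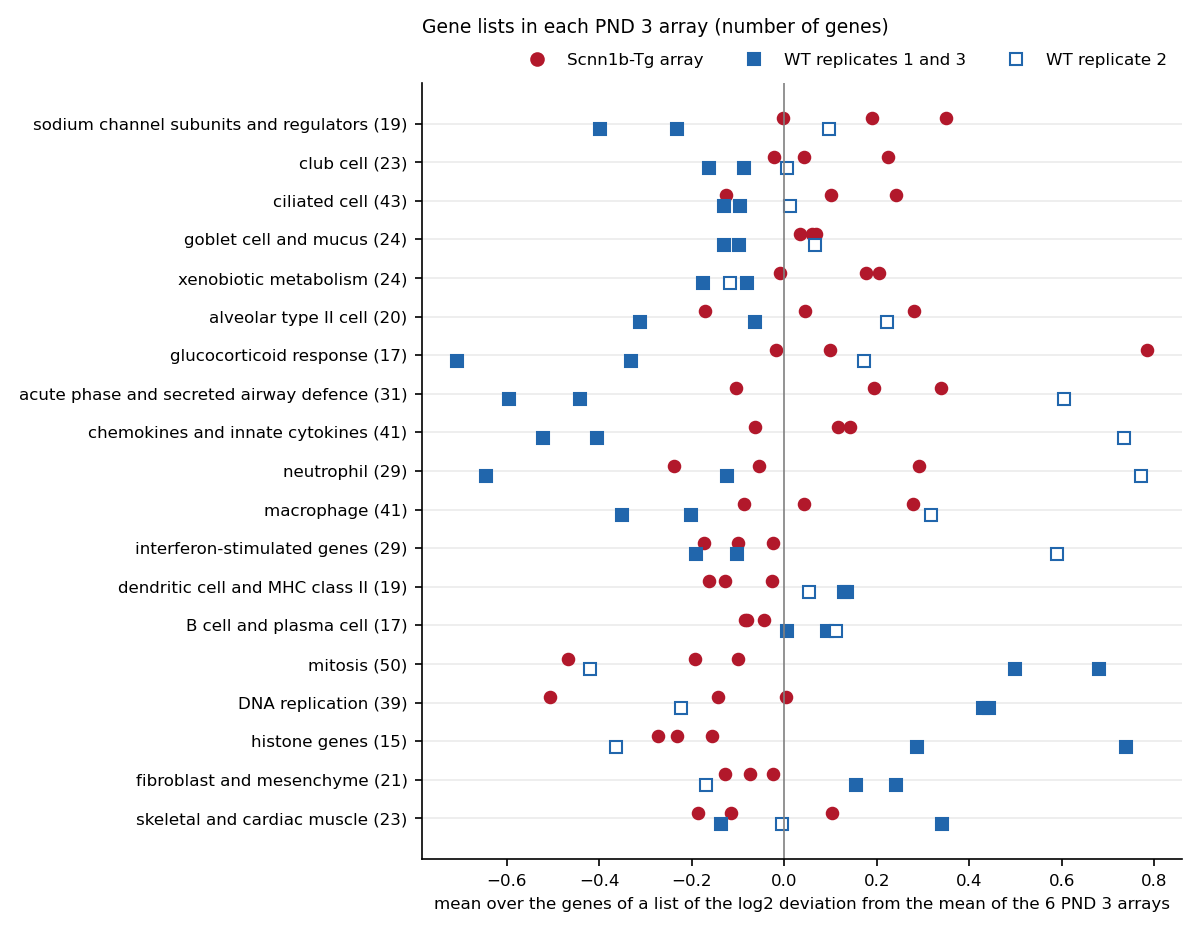
For each gene list (number of genes in brackets), the mean log2 deviation of its genes from the mean of the 6 PND 3 arrays, 1 point per array (circles *Scnn1b*-Tg, squares WT, open square WT replicate 2). For mitosis WT replicate 2 (-0.42) lies among the *Scnn1b*-Tg arrays (-0.47 to -0.10) and not near the other WT arrays (0.50 and 0.68), and for chemokines (0.73) it lies beyond them all.

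WT replicate 2 had high levels of inflammatory genes. *Saa3*, an acute phase protein made by injured airway epithelium, read 11.25, 10.43 and 8.88 in *Scnn1b*-Tg, against 7.91, 12.12 and 6.32 in WT lungs. WT replicate 2 was the highest of the 6 arrays and the other WT arrays the lowest. *Ccl3*, a chemokine of macrophages and neutrophils, read 7.97, 7.41 and 7.55 in *Scnn1b*-Tg, against 5.72, 9.57 and 5.55 in WT lungs, the same order. Of 41 chemokine and innate cytokine genes, 32 were higher in WT replicate 2 than in both other WT arrays. Neutrophil markers (*S100a8*, *S100a9*, *Ly6g*, *Cxcr2*) averaged 6.49 to 7.21 in *Scnn1b*-Tg and 6.35 to 7.77 in WT arrays, the highest in replicate 2, where *S100a8* read 10.21.

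Without that array, 31 probe sets were higher by 2-fold or more in *Scnn1b*-Tg lungs (0.142%). *Scnn1b* had the largest difference among them, and chemokines and acute phase proteins were others. *Ccl20*, the chemokine that draws CCR6-bearing lymphocytes and dendritic cells to epithelia, read 7.05, 7.39 and 6.36 in *Scnn1b*-Tg, against 3.87, 6.74 and 3.76 in WT lungs. WT replicate 2 lay among the *Scnn1b*-Tg arrays, and the difference was 2.14 (adjusted p = 0.235) with it and 3.11 (SE 0.31, adjusted p = 2.98e-05) without it. WT replicates 1 and 3 were near the floor of the array for *Ccl20*, so that the difference is a lower limit. *Orm1*, an acute phase protein, read 8.36, 7.69 and 6.91 in *Scnn1b*-Tg, against 5.04, 9.12 and 4.25 in WT lungs (3.01, adjusted p = 0.00844, without WT replicate 2). *Cxcl5*, a neutrophil attractant of epithelial cells, read 6.46, 6.98 and 5.97 in *Scnn1b*-Tg, against 4.11, 7.72 and 4.09 in WT lungs (2.37, adjusted p = 0.0217, without WT replicate 2). For both genes WT replicate 2 was above every *Scnn1b*-Tg array, and for *Cxcl5* the other WT arrays were near the floor too.

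Further genes of the same kind that were higher by 2-fold or more without WT replicate 2 were *Serpina3n* (2.63), an inhibitor of serine proteases, *Ccl3* (2.01), *Cxcl2* (1.88), a neutrophil attractant, *Acod1* (1.74), which makes itaconate in activated macrophages, *Cfb* (1.44), of the complement alternative pathway, and *Cxcl17* (1.14), a mucosal chemokine. Of the 41 chemokine and innate cytokine genes 5 were higher (0.396% of all genes) and 0 lower (0.456%), and the median was 0.30, against -0.01 with all arrays. Of the 31 acute phase and airway defence genes measured, 4 were higher and 0 lower, with a median of 0.56, against 0.25 with all arrays. Of 29 neutrophil genes 0 changed either way, and the median was 0.23, against 0.01 with all arrays. *Saa3* itself, at 3.07, did not pass (adjusted p = 0.0745).

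**Figure D4:**
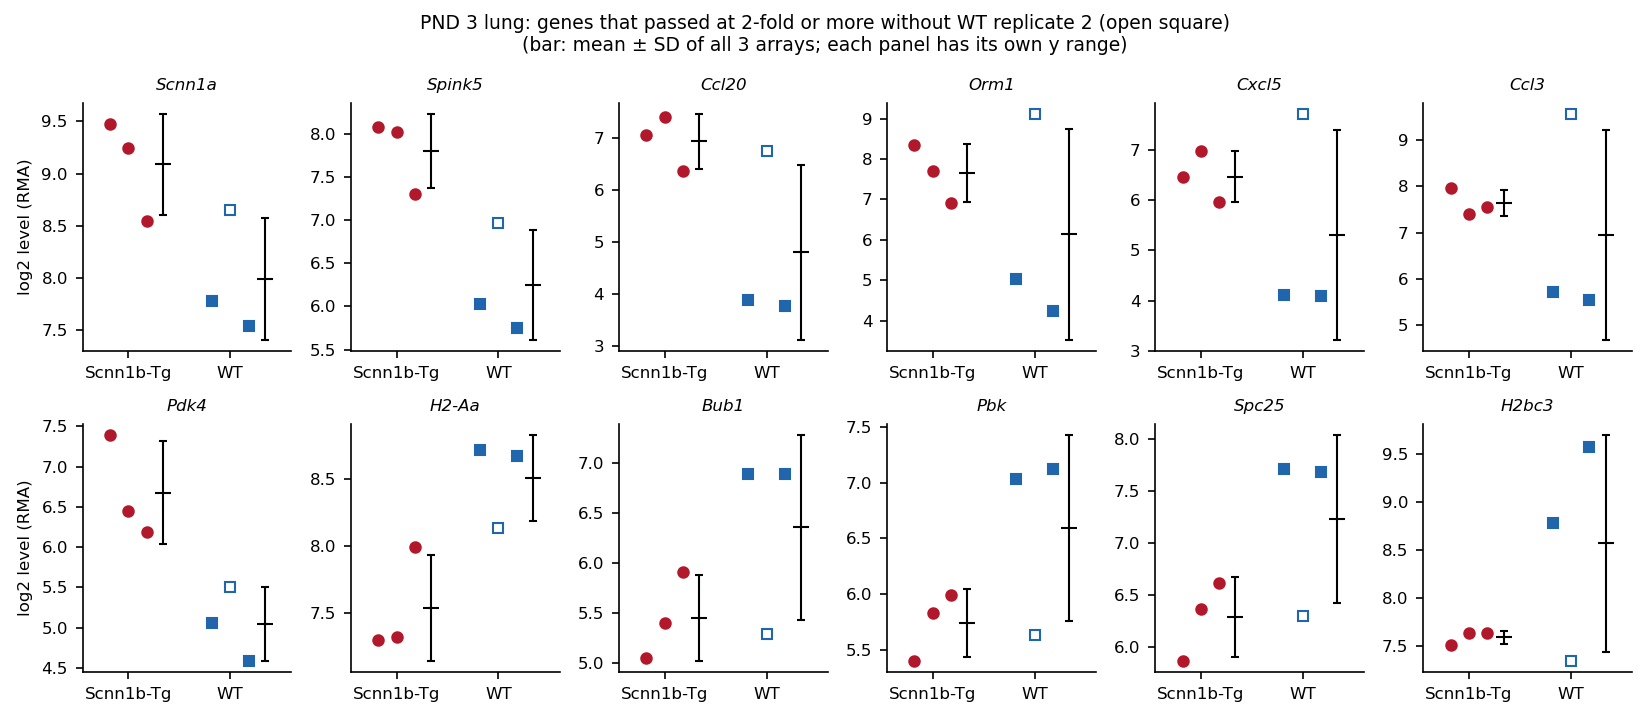
The log2 level in each PND 3 array of 12 genes that differed by 2-fold or more without WT replicate 2 (circles *Scnn1b*-Tg, squares WT, open square WT replicate 2, bars mean ± SD of all 3 arrays). For *Orm1*, *Cxcl5* and *Ccl3* the open square lies above every *Scnn1b*-Tg array, and for *H2bc3* below every one.

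*Cxcl2* and *Acod1* are shown with 62 bases around the 9 letters GGAATTTCC, a core of the sites that the inflammatory factor NF-kappa B binds, in capitals, on the strand of the gene. In *Cxcl2* the letters start 96 bases before the gene's start, at chr5:90903773-90903834 on the plus strand. In *Acod1* they stand in the opposite sense and start 85 bases before it, at chr14:103046897-103046958 on the plus strand.
Cxcl2: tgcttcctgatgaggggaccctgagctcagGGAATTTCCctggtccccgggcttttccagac
Acod1: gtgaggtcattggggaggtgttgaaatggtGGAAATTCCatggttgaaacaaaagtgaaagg
Of all genes with a window, 0.381% hold these letters on either strand (as GGAATTTCC or GGAAATTCC), and of the 28 chemokine and innate cytokine genes with a window 4 do (*Cxcl1*, *Cxcl2*, *Cxcl3* and *Cxcl10*). *Ccl20*, *Ccl3* and *Cxcl5* are not among them, and *Acod1* is not on that list. *Cxcl10* holds the letters and did not pass without WT replicate 2 (adjusted p = 0.0938).

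Genes that glucocorticoid hormone induces differed most in *Scnn1b*-Tg replicate 1. *Pdk4*, the kinase that turns off pyruvate oxidation, read 7.40, 6.45 and 6.19 in *Scnn1b*-Tg, against 5.05, 5.5 and 4.58 in WT lungs. The groups were apart, with a difference of 1.63 (adjusted p = 0.167) that was 1.86 (adjusted p = 0.0282) without WT replicate 2. *Fkbp5*, a chaperone of the hormone receptor, read 8.18, 7.30 and 6.30 in *Scnn1b*-Tg, against 5.95, 6.94 and 5.54 in WT lungs, and did not pass (adjusted p = 0.605, and 0.159 without WT replicate 2). *Tsc22d3*, which encodes the hormone-induced leucine zipper GILZ, was apart at 8.15, 7.36 and 7.08 in *Scnn1b*-Tg, against 6.59, 6.92 and 6.60 in WT lungs (adjusted p = 0.356). Over the 17 genes measured the mean deviation from the 6 arrays was 0.78, 0.10 and -0.02 in *Scnn1b*-Tg replicates 1, 2 and 3, against -0.33, 0.17 and -0.71 in WT replicates 1, 2 and 3. Without WT replicate 2, 2 of the 17 were higher, *Pdk4* and the metallothionein gene *Mt2* (0.91, adjusted p = 0.0319), and 0 lower. Of all genes, 0.396% were higher and 0.456% lower without that array. *Herpud1*, of the unfolded protein response, was 1.03 higher without WT replicate 2 (adjusted p = 0.0335), and *Inmt*, a methyltransferase of the maturing lung, 1.46 higher (adjusted p = 0.041).

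Genes of cell division were among those lower in *Scnn1b*-Tg lungs once WT replicate 2 was left out. *Bub1*, a kinase of the spindle checkpoint, read 5.05, 5.40 and 5.91 in *Scnn1b*-Tg, against 6.89, 5.30 and 6.89 in WT lungs. *Pbk*, a mitotic kinase, read 5.40, 5.83 and 5.99 in *Scnn1b*-Tg, against 7.03, 5.63 and 7.12 in WT lungs. *Spc25*, of the kinetochore, read 5.86, 6.37 and 6.62 in *Scnn1b*-Tg, against 7.71, 6.30 and 7.68 in WT lungs. In all 3 genes WT replicate 2 lay among the *Scnn1b*-Tg arrays, and WT replicates 1 and 3 lay above them all. With all arrays the differences were -0.90, -0.85 and -0.95 (adjusted p = 0.574, 0.454 and 0.426). Without WT replicate 2 they were -1.43, -1.34 and -1.41 (adjusted p = 0.0232, 0.00386 and 0.00994).

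Of 50 mitosis genes measured, 0 changed with all arrays, and without WT replicate 2, 22 were lower, 14 of them by 2-fold or more, and 0 higher (0.456% of all genes were lower and 0.396% higher). All 50 had a negative difference with all arrays, with a median of -0.54, and of -0.86 without WT replicate 2. In all 50, WT replicate 2 was below both other WT arrays. Besides those above, the lower genes included *Top2a* (-1.37), which untangles DNA, *Prc1* (-1.28), which bundles the microtubules of dividing cells, and the spindle genes *Kif22* (-1.07), *Ckap2l* (-1.01) and *Spag5*. *Top2a* has a second probe set, which differed by 0.36. *Depdc1a* (-1.49) and *Pimreg* (-1.49), also induced in mitosis, and *Pclaf* (-1.30), which binds the replication clamp, were lower as well.

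Of 39 DNA replication genes 0 changed with all arrays, and without WT replicate 2, 5 were lower (*Mcm5*, *Cdc45*, *Rfc5*, *Pole2* and *Dscc1*) and 0 higher. Of all genes, 0.456% were lower and 0.396% higher without that array. The median of the 39 was -0.43, and -0.69 without WT replicate 2, which was below both other WT arrays in 38 of the 39. Of 15 histone genes on the list, 2 were lower without WT replicate 2 (*H1f1* and *H2bc3*). *H2bc9*, another gene of histone H2B, read 5.09, 5.09 and 5.10 in *Scnn1b*-Tg, against 6.36, 5.39 and 6.18 in WT lungs, and was apart in all arrays (-0.89, adjusted p = 0.0853, and -1.18, adjusted p = 0.000421, without WT replicate 2). *H2bc3* read 7.52, 7.63 and 7.63 in *Scnn1b*-Tg, against 8.79, 7.34 and 9.58 in WT lungs, with WT replicate 2 the lowest array.

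Many promoters of mitosis genes hold a cell cycle homology region, TTTGAA, at which the DREAM complex keeps them silent in resting cells. For 4 genes that hold these letters and were lower without WT replicate 2, the 59 bases around them are shown on the strand of the gene. The letters are in capitals (TTCAAA where they stand in the opposite sense). *Top2a* lies at chr11:99024184-99024242 (minus strand), *Prc1* at chr7:80294416-80294474 (plus strand), *Kif22* at chr7:127042409-127042467 (minus strand) and *Ckap2l* at chr2:129297214-129297272 (minus strand). The letters start 23, 5, 17 and 30 bases before the start of *Top2a*, *Prc1*, *Kif22* and *Ckap2l*.
Top2a: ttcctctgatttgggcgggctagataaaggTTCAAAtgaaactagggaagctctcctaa
Prc1: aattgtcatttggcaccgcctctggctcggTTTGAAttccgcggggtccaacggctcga
Kif22: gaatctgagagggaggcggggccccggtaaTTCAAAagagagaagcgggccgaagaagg
Ckap2l: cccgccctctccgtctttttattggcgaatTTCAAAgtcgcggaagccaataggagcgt
The 6 letters occur on either strand in 31 of the 42 mitosis genes with a window (73.8%), against 20.2% of all genes. *Bub1*, *Pbk* and *Spc25* are not among the 31.

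Of the other genes that were lower without WT replicate 2, *Fat3*, a giant cadherin, had the largest difference. It read 6.00, 6.72 and 7.66 in *Scnn1b*-Tg, against 8.74, 6.68 and 8.85 in WT lungs (-2.01, adjusted p = 0.0195, without WT replicate 2 and -1.30, adjusted p = 0.539, with it). Its 15 probe sets all differed in that direction there, by -2.01 to -0.12, and 2 passed. *Dpt*, a matrix protein of fibroblasts, averaged 10.07 ± 0.41 in *Scnn1b*-Tg and 10.79 ± 0.58 in WT lungs (SD, n = 3 each) and was 1.05 lower on the log2 scale only without WT replicate 2 (adjusted p = 0.0425).

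These probe sets were chosen by the test without WT replicate 2, which largely fixes where that array lies among them, so its place is given as a description. Of the 31 probe sets higher by 2-fold or more without it, it lay on the *Scnn1b*-Tg side of both other WT arrays in 30 and beyond the *Scnn1b*-Tg mean in 12, and the 3 arrays of each genotype were apart in 10. Of the 46 lower (0.211%), it lay on that side in 45 and beyond the mean in 23, and the groups were apart in 12. Neither the labels nor the methods give a reason to leave the array out.

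The genotype differences were set beside those at the other ages, each from its own 6 arrays. At PND 0, 10 and 42 there were 3 (0.0138%), 33 (0.151%) and 74 (0.34%) probe sets that changed by 2-fold or more, against 4 at PND 3. *Scnn1b* differed by 3.04, 3.29, 3.22 and 2.93 at PND 0, 3, 10 and 42, and *Ttr* by 1.92, 1.89, 2.71 and 2.54. *Aoc1* differed by 0.21, 0.88, 0.88 and 0.04, and at PND 10 too it passed (adjusted p = 0.0098). *Nupr1* differed by -0.05, 0.97, 0.60 and 0.08, with an adjusted p under the threshold only at PND 3. Whether such a difference was itself unlike that of another age was tested by the difference of the 2 genotype differences.

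**Figure D5:**
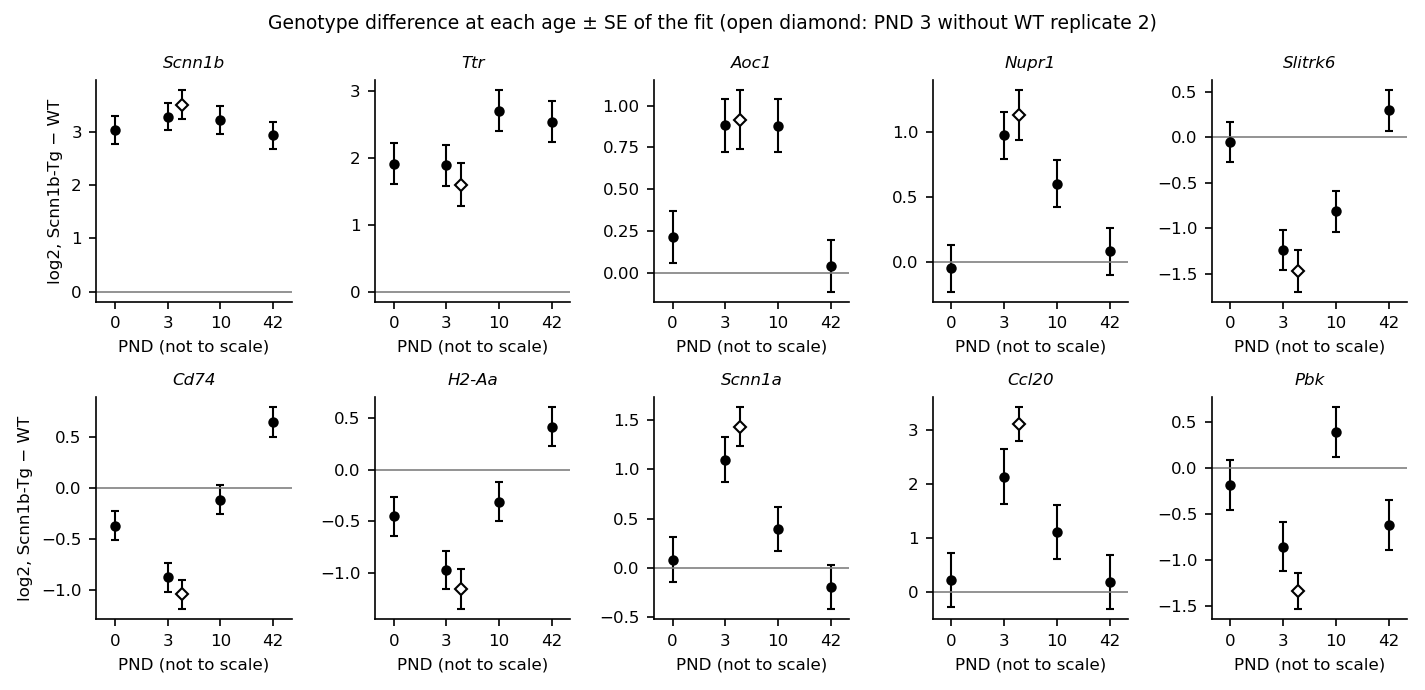
The log2 difference *Scnn1b*-Tg minus WT ± SE of the fit for 10 genes at PND 0, 3, 10 and 42 (filled circles, ages not to scale; the open diamond is PND 3 without WT replicate 2). *Scnn1b* stays near 3 at each age, while *Cd74* runs at -0.37, -0.88, -0.12 and 0.65.

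Against PND 0, the genotype difference at PND 3 differed by 2-fold or more in 0 probe sets (0.0%) in limma with all arrays, also without moderation of the variances (at an unadjusted p of at most 0.05, 601 were higher and 433 lower). Without WT replicate 2 it did so in 1 (0.00459%), *Ccl20*, whose difference was 2.90 larger at PND 3 (SE 0.42, adjusted p = 0.0208). Against PND 10 it did so in 2 (0.00918%), *Clca1* and *Thbs2*. Both are genes that differed at PND 10 and not at PND 3: *Clca1*, a secreted product of goblet cells, by 0.06 at PND 3 and -2.47 at PND 10, and *Thbs2*, the matrix protein thrombospondin 2, by -0.15 at PND 3 and -1.38 at PND 10. Without WT replicate 2 there were 21 (0.0964%), 19 of them lower at PND 3. *Pbk* was among these (-1.72, adjusted p = 0.0193), as was *Kif22* (-1.58, adjusted p = 0.0281).

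Against PND 42 the genotype difference at PND 3 differed in 38 probe sets (0.174%), 2 higher and 36 lower at PND 3, and without WT replicate 2 in 53 (0.243%). *Cd74*, *H2-Aa*, *H2-Eb1* and *Slitrk6* were among the 36. In the other genes among the 36 the larger difference was that at PND 42, where *Scnn1b*-Tg was higher. *Clca1*, for example, differed by 0.06 at PND 3 and 4.05 at PND 42. *Cd74* was lower in *Scnn1b*-Tg at PND 3 (-0.88) and higher at PND 42 (0.65, adjusted p = 0.0305), and the difference between these was -1.52. *Gpnmb*, a membrane glycoprotein of macrophages, differed by 0.09, 1.02, 2.27 and 3.27 at PND 0, 3, 10 and 42. At PND 3 it did not pass (adjusted p = 0.564), and its difference at PND 3 minus that at PND 42 was -2.26 (adjusted p = 0.0951). For the 50 mitosis genes the median genotype difference was -0.15, -0.54, 0.26 and 0.05 at PND 0, 3, 10 and 42.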

How the data were processed

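RNA of pooled left lung lobes was measured on Mouse Gene 1.0 ST arrays of Affymetrix. The authors summarized probe intensities by RMA, with quantile normalization and median polish, in Partek 6.5 and deposited log2 values, 1 per transcript cluster and array. No new normalization was applied, and the number of arrays limits the precision. Of 35556 rows, 21789 name exactly 1 gene and were tested, 1621 name several and 12146 none. The 6 arrays of PND 3 had medians of 5.12 to 5.18 over the tested rows, and 0 pairs of arrays were identical.

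R 4.3.3 with limma 3.58.1 fitted 8 group means to 24 arrays (lmFit, eBayes), with contrasts for *Scnn1b*-Tg minus WT at each age and for the difference between ages, Benjamini-Hochberg adjusted within a contrast. The fit was also run on simulated data with independent noise for each probe set and array. No simulated array was made to depart as a whole, so that run does not bear on WT replicate 2. Same-numbered arrays of the genotypes at PND 3 did not deviate together (correlations of -0.26, -0.02 and 0.08), so the replicate number was not used as a pairing. The animal numbers of some pools run on from each other, also across genotypes, and the sources used here do not say whether those pools shared litters. The p-values treat the pools as independent and measure the spread between them.

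Named genes are those that changed by 2-fold or more at PND 3 (without WT replicate 2 the 12 with the largest change in each direction), the 10 higher and the 10 lower with the lowest p, up to 4 of each of 50 gene lists with the lowest p, cell type markers, *Scnn1b*, *Ttr*, *Scgb1a1*, and genes the study names at PND 3. Other members of a list and *Saa3*, *H2-DMa*, *H2-Oa*, *Ciita*, *Krt4*, *Krt13*, *Clca1*, *Thbs2* and the genes without shown values were named after their values were seen. The comparison, the gene lists and the left-out array were chosen with earlier results of these data known. Promoters came from RefSeq, mouse build GRCm38.p6. Alternatives tried were no moderation, a trend with robust prior, the compared ages alone, array weights, the replicate block, dim rows left out, all rows, 1 row per gene, repeated quantile normalization, subtracted medians, a 1.5-fold threshold and each PND 3 array left out. Leaving out WT replicate 2 together with *Scnn1b*-Tg replicate 3 was added after seeing the data.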

Additional observations from a re-analysis of the deposited data

Results flagged for a closer look

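In 6 genes named here the genotype difference at PND 3 was unlike that at PND 42, and in 2 unlike that at PND 10, by the limma test of the difference itself. *Cd74*, the class II invariant chain, differed by -0.88 at PND 3 and 0.65 at PND 42 (-1.52 between them, SE 0.20, adjusted p = 0.000457). *H2-Aa* differed by -0.97 and 0.42 (-1.39, SE 0.27, adjusted p = 0.0255) and *H2-Eb1* by -0.94 and 0.29 (-1.23, SE 0.24, adjusted p = 0.028). *Slitrk6* differed by -1.24 and 0.29 (-1.53, SE 0.32, adjusted p = 0.0389). *Cyp2s1*, a cytochrome P450, ran the other way, with 0.69 at PND 3 and -0.52 at PND 42 (1.21, SE 0.22, adjusted p = 0.0203). Of these single-age values, the ones that passed with all arrays were those of *Cd74* at both ages and of *H2-Eb1* and *Slitrk6* at PND 3. *Clca1*, a goblet cell gene, had genotype differences of 0.06, -2.47 and 4.05 at PND 3, 10 and 42. That of PND 3 minus that of PND 10 was 2.54 (SE 0.31, adjusted p = 0.00103), and minus that of PND 42 it was -3.98 (SE 0.31, adjusted p = 3.24e-07). *Thbs2* differed by -0.15 at PND 3 and -1.38 at PND 10 (1.23, SE 0.19, adjusted p = 0.0199).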

How the results depend on the processing

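With all arrays, 4 probe sets differed by 2-fold or more at PND 3 and 10 passed at any size. These counts were 1 and 1 without eBayes moderation, 1 and 1 with the arrays of the compared ages alone, 1 and 1 with all rows, 35 and 388 with array weights, and 9 and 16 with the replicate block. At 1.5-fold, 10 were called. Leaving out 1 array gave from 1 to 77 called and from 1 to 176 at any size: only *Scnn1b* was left without *Scnn1b*-Tg replicate 1 (1) or replicate 2 (1), 2 and 2 without WT replicate 1, 2 and 3 without WT replicate 3, 17 and 29 without *Scnn1b*-Tg replicate 3, and 77 and 176 without WT replicate 2. Without WT replicate 2 and *Scnn1b*-Tg replicate 3 together, chosen after seeing the data, there were 166 and 389. The calls at PND 3 other than *Scnn1b* thus depended on which arrays of both genotypes were kept. Leaving out an array also leaves fewer to test, and the 2 were not separated. The cause of the changes was not tested. With single PND 3 arrays, or WT replicate 2 and *Scnn1b*-Tg replicate 3 together, left out, *Ccl3* ran between -0.0061 and 2.05 and *Acod1* between -0.28 and 1.86.

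The difference from PND 0 was called in 0 probe sets, in 8 with array weights, in 0 to 1 with 1 array left out and in 14 with both arrays left out. That from PND 10 was called in 2, in 1 without moderation, 1 with the compared ages alone, 17 with weights, 1 with the replicate block, 1 to 21 with 1 array left out and 84 with both left out. That from PND 42 was called in 38, in 14 without moderation, 86 with weights, 22 with all rows, 23 to 53 with 1 array left out and 95 with both left out.

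Several genes changed sign. *Ciita* was -0.024 after repeated quantile normalization, -0.0026 with medians subtracted and -0.058 to 0.052 with arrays left out. With array weights *Cyp2f2* was 0.13, *Foxj1* 0.13 and *Gzma* 0.033. With arrays left out *Cyp2f2* ran between -0.28 and 0.11, *Foxj1* between -0.19 and 0.27, *Gzma* between -0.15 and 0.051, *Clca1* between -0.16 and 0.19, *Flt3* between -0.065 and 0.20, *Sgk1* between -0.27 and 0.082, *S100a8* between -0.68 and 0.36 and *Krt4* (-0.94 with all arrays) between -1.59 and 0.15, the last without WT replicate 3.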

Other observations

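In several gene groups of the newborn lung 0 genes changed with all arrays at PND 3. Of 45 respiratory chain genes 0 changed, and 9 were apart with *Scnn1b*-Tg lower, against 5.93% of all genes, with a median of -0.10. Of 41 macrophage genes 0 changed with or without WT replicate 2, and 7 were apart with *Scnn1b*-Tg higher, against 5.46% of all genes, with a median of 0.20. *Siglecf*, a receptor that marks alveolar macrophages, read 5.23, 5.45 and 5.74 in *Scnn1b*-Tg, against 6.03, 5.70 and 6.12 in WT lungs, overlapping only at WT replicate 2 (difference -0.47, adjusted p = 0.619). Interferon-stimulated genes (29 measured) had 0 changes, and their mean deviation from the 6 arrays was -0.02, -0.10 and -0.17 in the *Scnn1b*-Tg arrays, against -0.10, 0.59 and -0.19 in WT replicates 1, 2 and 3. Alveolar type II (20 genes), alveolar type I (14), endothelial (22), smooth muscle (20) and collagen and elastic fibre genes (31) had 0 changes with or without WT replicate 2. *Msln*, which marks the mesothelium, was 0.94 higher in *Scnn1b*-Tg lungs without WT replicate 2.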
